A study of Mus musculus with 17 samples.

Results

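The family of vascular endothelial growth factors (VEGF) and its receptors was followed in the glomeruli-enriched kidney cortex of diabetic and lean mice. The set held 10 genes, picked by their names from the 53379 genes of the count table through the GRCm38 annotation, and all 10 were found and passed the filter on low counts. They are the ligand genes Vegfa, Vegfb, Vegfc, Vegfd and Pgf, the receptor kinase genes Flt1, Kdr and Flt4, and the co-receptor genes Nrp1 and Nrp2. Messenger RNA was sequenced in 3 groups of mice of the BTBR strain, each library being 1 mouse. The atrasentan group (n = 7) were ob/ob mice, homozygous for ob, a mutation of Lep (leptin), which makes this strain obese and diabetic. They drank atrasentan, which blocks the endothelin A receptor, at a daily 5 mg per kg from 18 to 24 weeks of age. The saline group (n = 5) were ob/ob mice given saline over the same 6 weeks. The wild type group (n = 5) were lean BTBR mice killed at the same age, for which the labels give no treatment, so that both ob/ob groups share the missing leptin and differ from wild type in it. The drug was given at 1 dose and the tissue taken at 1 age. The labels write the genotypes as "BTBR ob", "ob/ob-d30" and "WT-d30", and nothing used here explains "d30".

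VEGF ligands are secreted dimers that bind receptor tyrosine kinases on endothelial cells. VEGF-A binds VEGFR1, encoded by Flt1, and VEGFR2, encoded by Kdr, which carries most of its signal for endothelial survival, growth and permeability. Placental growth factor (Pgf) and VEGF-B bind VEGFR1, while VEGF-C and VEGF-D bind VEGFR3, encoded by Flt4, and cleaved VEGF-C also binds VEGFR2. Neuropilins 1 and 2 bind both VEGF and class 3 semaphorins. In the glomerulus the podocytes make VEGF-A and the endothelium of the capillaries beneath them carries the receptors, and both too little and too much podocyte VEGF-A are known to injure the filter.

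Gene reads per library lay between 37252939 and 52528747 with atrasentan, between 35938445 and 40268662 with saline and between 29161833 and 40965108 in wild type. In each library at least 477 reads fell on each of the 10 genes (Vegfd had the lowest count), and over the 17 libraries 1746577 reads fell on Nrp1 and 17857 on Pgf. Every atrasentan library held a smaller share of reads outside genes than any other library, at 3.17% to 5.65% with atrasentan, 5.95% to 8.17% with saline and 6.26% to 8.58% in wild type. The tissue label fitted the markers: Ehd3, a protein of glomerular endothelium, averaged 5230.0 CPM (the gene's reads scaled to library size) with atrasentan, 3737 CPM with saline and 4004 CPM in wild type. Tubule was present too: the summed level of 22 proximal tubule markers lay between 556 and 3362 CPM with atrasentan, 3444.5 and 16486 CPM with saline, and 1950.1 and 4169.8 CPM in wild type. Saline libraries 1 and 3 held 16486 and 15583 CPM, and the other 3 saline libraries at most 8688 CPM, so results that turn on these libraries are also given without them. Of 26 podocyte markers 11 fell and 1 rose with atrasentan against saline (11 and 0 without these libraries), 9 fell with saline against wild type (0 without saline libraries 1 and 3, where 11 had an unadjusted p under 0.05 and the list median was -0.58 in place of -0.81), and 21 fell and 1 rose with atrasentan against wild type. Of all genes tested 15.3% rose and 18.5% fell with atrasentan against saline. The shares were 3.21% and 1.91% with saline against wild type, and 14.7% and 14.5% with atrasentan against wild type. In bulk tissue, fewer cells of a type and less RNA per cell cannot be told apart, and this holds for each result that follows.

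Set per kb of exon, so that genes of different length could be compared, Nrp1 and Kdr held the top mean levels of the 10 genes and Vegfa the third in all 3 groups. Nrp1 stood at 310 ± 32.2 CPM per kb in atrasentan, 235 ± 18.0 in saline and 282 ± 32.3 in wild type libraries (mean ± SD, n = 7, 5 and 5). Kdr stood at 300 ± 45.5, 231 ± 20.3 and 230 ± 61.3 CPM per kb in the same groups, and the ranges of Nrp1 and Kdr overlapped in each group. Vegfa followed at 72.0 ± 18.9 CPM per kb in atrasentan, 134 ± 37.1 in saline and 175 ± 43.7 in wild type libraries. The ranges of Kdr and Vegfa overlapped in saline and in wild type, but not with atrasentan. In wild type library 3 Vegfa (240.3 CPM per kb) stood above Kdr (200.9). Vegfa stood above the gene that followed it in every library with saline and in wild type, but not with atrasentan, where Vegfd (48.4 ± 17.1) came next and the ranges overlapped. In saline and wild type the next genes were Vegfb and Flt1, whose ranges overlapped. Nrp2 was low in the order in each group, at 7.92 ± 1.78, 6.04 ± 1.29 and 5.99 ± 1.74 CPM per kb in atrasentan, saline and wild type libraries. Pgf, at 9.30 ± 1.81, 5.70 ± 1.02 and 14.8 ± 3.71 CPM per kb, stood beside Nrp2 at the low end in both ob/ob groups. In wild type the mean of Pgf lay above those of Vegfc, Flt4 and Vegfd, but the ranges of Pgf and Vegfc overlapped. Wild type library 1 held less Pgf (11.17 CPM per kb) than Vegfc (19.32) or Flt4 (13.75). By mean, the gene next to Nrp2 in wild type was Vegfd (7.61 CPM per kb).

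Over the 3 comparisons 10 of the 12 calls fell on ligands and 2 on receptors or co-receptors, a split that turns in part on the threshold. A gene was called changed at an edgeR quasi-likelihood p, adjusted by Benjamini-Hochberg over 17766 genes, under 0.05. With saline against wild type 2 of the 10 genes were called, Vegfd higher and Pgf lower, where 5.12% of all genes tested were called. With atrasentan against saline 5 were called (33.8% of all genes), namely Vegfc, Vegfd, Pgf and Nrp1 higher and Vegfa lower. Nrp1 rose by 0.40 there on the log2 scale. The receptor and co-receptor genes not called stood close to it, Flt4 at 0.40, Nrp2 at 0.39, Kdr at 0.37 and Flt1 at 0.33 (edgeR adjusted p between 0.0616 and 0.136). With atrasentan against wild type 5 were called (29.2% of all genes), namely Vegfc, Vegfd and Flt4 higher and Vegfa and Pgf lower. The median log2 fold change of the 10 genes was 0.041, 0.40 and 0.39 in these comparisons, beside 0.0057, -0.0051 and -0.0088 over all genes tested. The comparisons share libraries with each other, so they are not independent. Each of the 12 calls was kept when any 1 of the 17 libraries was left out.

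**Figure D1:**
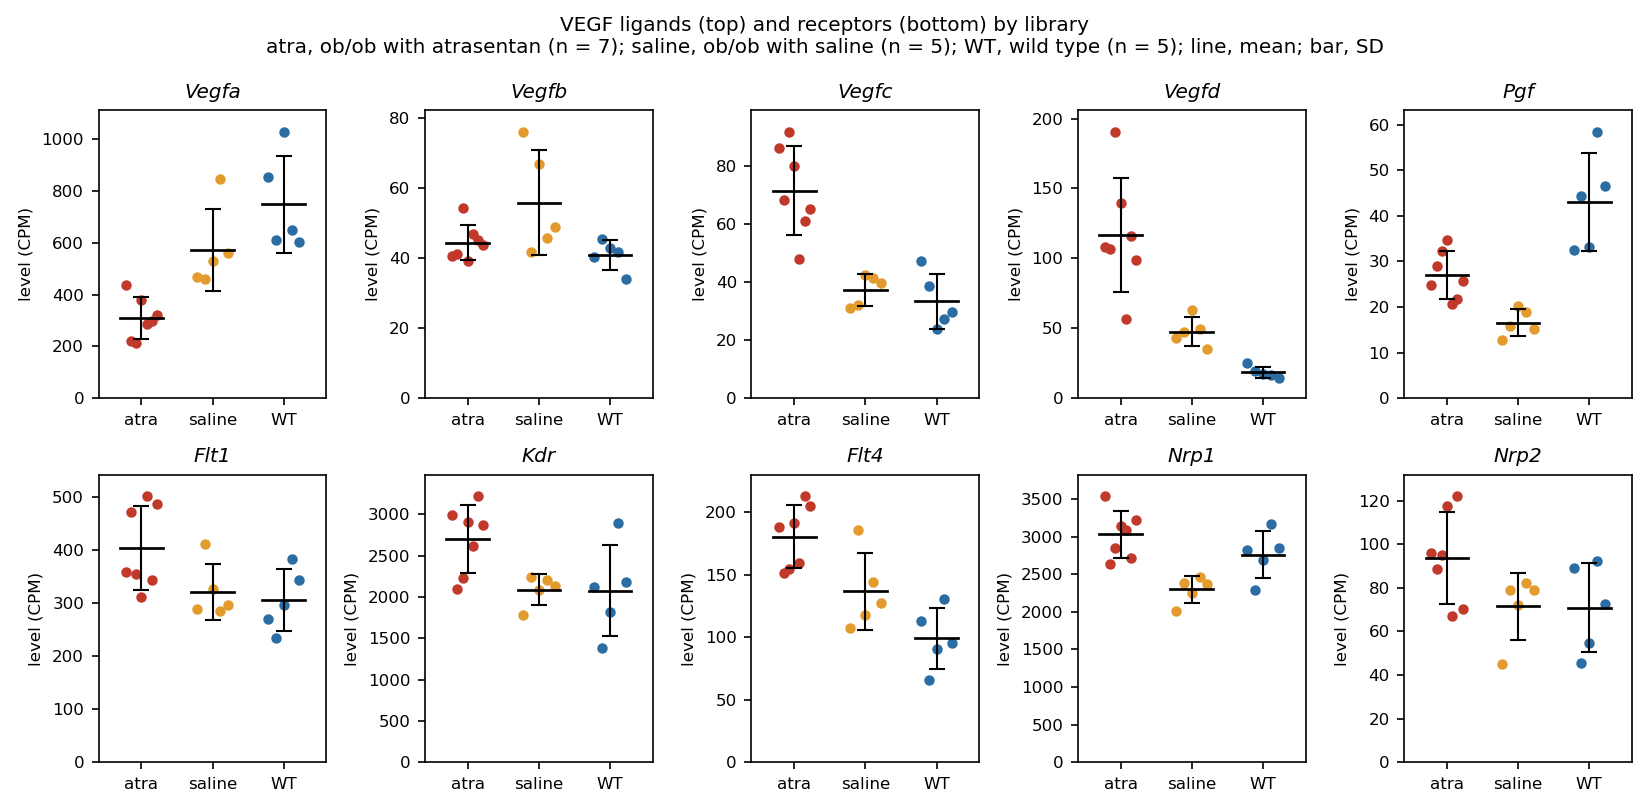
Level of the 10 genes in each library, in CPM on linear axes that start at 0, with atrasentan (n = 7), saline (n = 5) and wild type (n = 5) from left to right. The line is the mean and the bar the SD. Vegfa was lowest and Vegfd and Vegfc highest in the atrasentan libraries, while Pgf was lowest in the saline libraries.

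**Figure D2:**
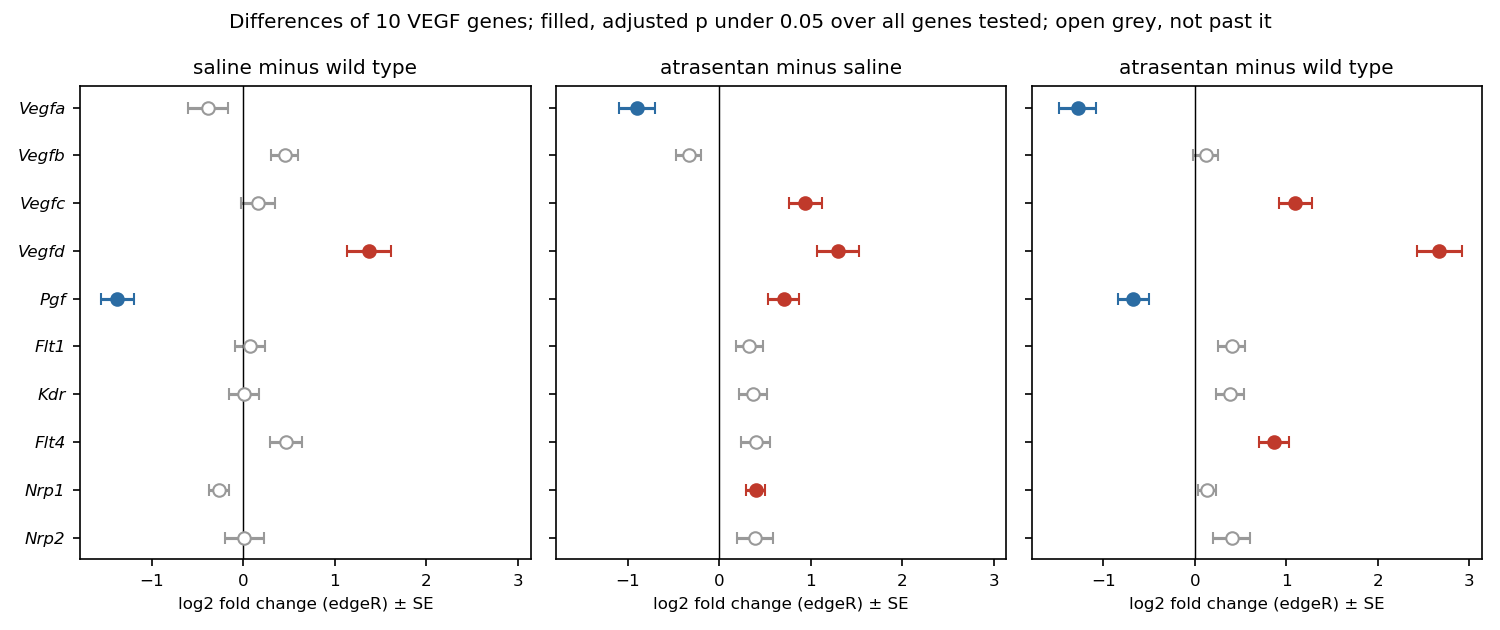
Log2 fold change of the 10 genes (edgeR, bar: SE) in 3 comparisons, filled where the adjusted p over all genes tested was under 0.05. The filled points lie mostly among the ligands. Of the receptors and co-receptors 1 is filled with atrasentan against saline (Nrp1) and 1 with atrasentan against wild type (Flt4). The open points of Flt1, Kdr, Flt4 and Nrp2 lie on the same side of 0 as Nrp1 with atrasentan against saline.

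Vegfa, the ligand made by podocytes and also by tubule cells, was lower with atrasentan than in either other group. It lies at chr17:46016993-46032369 on the minus strand (GRCm38), and 13 transcripts are annotated, among them splice forms that bind matrix to a different degree, which counts per gene do not separate. Vegfa had 212, 300 and 437 CPM (lowest, median and highest of 7) with atrasentan, against 461, 468, 528, 562 and 847 CPM with saline. In wild type there were 604, 609, 650, 855 and 1029.7 CPM. No atrasentan library reached the level of any saline or wild type library, while the highest saline library lay within the wild type range. With atrasentan Vegfa fell by 0.89 ± 0.20 on the log2 scale against saline (SE, edgeR adjusted p = 0.00288) and by 1.28 ± 0.20 against wild type (adjusted p = 0.000177). With saline it stood at -0.39 ± 0.22 against wild type, which did not pass (adjusted p = 0.322).

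The podocyte markers were lower as well, and Vegfa was set against them within each library. The log2 ratio of Vegfa to the mean of 26 podocyte markers was 1.69 ± 0.23 in atrasentan, 1.88 ± 0.14 in saline and 1.51 ± 0.07 in wild type libraries (SD, n = 7, 5 and 5). Every saline library (1.66 to 1.99) lay above every wild type library (1.43 to 1.63), with a difference of 0.37 and an exact permutation p = 0.00794, the smallest that 5 against 5 mice can give. Adjusted over the 12 ratio tests made, this did not pass (adjusted p = 0.0952). The difference of atrasentan from saline was -0.19 (exact p = 0.130, adjusted p = 0.390) and that between atrasentan and wild type 0.18 (exact p = 0.119, adjusted p = 0.390). The summed level of the podocyte markers lay between 5699.7 and 9943 CPM with atrasentan, 8107 and 14059 CPM with saline, and 12372 and 19133 CPM in wild type, and no marker was at 0 in all libraries. The genes whose levels followed Vegfa most closely over the 17 libraries, after the group means were subtracted, were Thsd7a (Pearson r = 0.94), a podocyte membrane protein, the transcription factor Sp2 (r = 0.94) and Foxc2 (r = 0.93), a transcription factor of podocytes. Thsd7a and Foxc2 are on the podocyte list. Here and for the other genes r describes these 17 libraries, which differ in depth and tissue make-up within the groups too, and carries no test.

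Vegfd, a ligand of VEGFR3 that is best known for its effect on lymphatic vessels, was higher in both ob/ob groups than in wild type and higher again with atrasentan. It lies at chrX:164373378-164402650 on the plus strand. Vegfd had 56.5, 108 and 191 CPM (lowest, median and highest) with atrasentan, against 34.8, 43.0, 47.2, 49.5 and 62.9 CPM with saline. Wild type mice had 14.1, 16.6, 17.1, 19.2 and 24.8 CPM. The saline and wild type libraries did not overlap, and of the atrasentan libraries only library 5, the lowest, lay within the saline range. Vegfd rose by 1.37 ± 0.24 on the log2 scale with saline against wild type (SE, edgeR adjusted p = 0.00791), by 1.297 ± 0.23 with atrasentan against saline (adjusted p = 0.000662) and by 2.67 ± 0.25, or 6.36-fold, with atrasentan against wild type (adjusted p = 3.61e-06). The rise with saline was 1.25 without saline libraries 1 and 3, the libraries with the most proximal tubule RNA, and did not pass there (adjusted p = 0.0644). The closest gene in pattern over the 17 libraries was Col12a1 (r = 0.91), a fibril-associated collagen.

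Vegfc, the other VEGFR3 ligand, was higher with atrasentan than in both other groups. Vegfc had 48.0, 68.5 and 91.9 CPM (lowest, median and highest) with atrasentan, against 31.0, 32.0, 39.8, 41.3 and 42.4 CPM with saline. The wild type libraries had 23.9, 27.4, 29.8, 38.7 and 47.3 CPM. All 7 atrasentan libraries lay above all saline and wild type libraries, and saline and wild type overlapped. Vegfc rose by 0.94 ± 0.18 against saline (edgeR adjusted p = 0.00105) and by 1.10 ± 0.18 against wild type (adjusted p = 0.000281), and stood at 0.16 ± 0.19 with saline against wild type (adjusted p = 0.698). Its closest genes in pattern were Mtap (r = 0.88), Dapk2 (r = 0.86) and Aldh1a2 (r = 0.86), an enzyme that makes retinoic acid.

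Pgf, the VEGFR1 ligand, was lowest with saline. It lies at chr12:85166635-85177790 on the minus strand. Pgf had 20.7, 25.7 and 34.7 CPM (lowest, median and highest) with atrasentan, against 12.8, 15.1, 15.9, 18.8 and 20.2 CPM with saline. Wild type libraries held 32.4, 33.1, 44.3, 46.5 and 58.5 CPM. All saline libraries lay below all libraries of the other groups, and the atrasentan and wild type ranges overlapped. Pgf fell by 1.38 ± 0.18 with saline against wild type (edgeR adjusted p = 0.00192), rose by 0.71 ± 0.17 with atrasentan against saline (adjusted p = 0.00485) and fell by 0.67 ± 0.17 with atrasentan against wild type (adjusted p = 0.00575). Both comparisons with the saline group share its libraries. With the outside-gene share as a covariate, an alternative added after seeing the data, the difference of atrasentan from wild type was -0.19 (adjusted p = 0.814). The closest gene in pattern was Thra (r = 0.92), a thyroid hormone receptor.

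Vegfb, a VEGFR1 ligand of oxidative tissues, was not called by edgeR in any comparison with all libraries. Vegfb had 39.2, 43.7 and 54.3 CPM (lowest, median and highest) with atrasentan, against 41.7, 45.7, 48.9, 67.0 and 76.2 CPM with saline. In wild type the libraries had 34.0, 40.3, 41.8, 43.1 and 45.4 CPM. Saline libraries 1 and 3 were the highest of all 17, and these also held the most proximal tubule RNA. Saline stood 0.45 ± 0.15 above wild type (edgeR adjusted p = 0.0801), which was 0.14 without saline libraries 1 and 3 (adjusted p = 0.742) and passed without saline library 2 (0.54, adjusted p = 0.0340) or 4 (0.51, adjusted p = 0.0466). DESeq2 called it in all libraries (0.46, adjusted p = 0.0372). With atrasentan Vegfb stood at -0.33 ± 0.14 against saline (adjusted p = 0.0681), which passed without atrasentan library 3 (-0.38, adjusted p = 0.0427), saline library 2 (-0.42, adjusted p = 0.0234) or 4 (-0.39, adjusted p = 0.0446). Against wild type it stood at 0.12 ± 0.14 (adjusted p = 0.547). Its closest genes in pattern were Mdh2 (r = 0.94), Pgam1 (r = 0.93) and Ndufa10 (r = 0.93), an enzyme of the citric acid cycle, one of glycolysis and a subunit of respiratory complex I.

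As a share of the 5 ligands, counted as CPM per kb of exon, Vegfa was 38.7% ± 8.29 in atrasentan, 63.3% ± 6.81 in saline and 73.3% ± 5.22 in wild type libraries (SD, n = 7, 5 and 5). Vegfd was 25.5% ± 6.74, 9.56% ± 2.17 and 3.25% ± 0.61 of the ligand RNA in these groups, and Vegfc was 15.6% ± 1.69, 7.35% ± 0.88 and 5.90% ± 1.73. No atrasentan library had a Vegfa share above 47.3%, and no saline or wild type library had one below 57.0%. These shares hold the differences already given and were not tested.

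**Figure D3:**
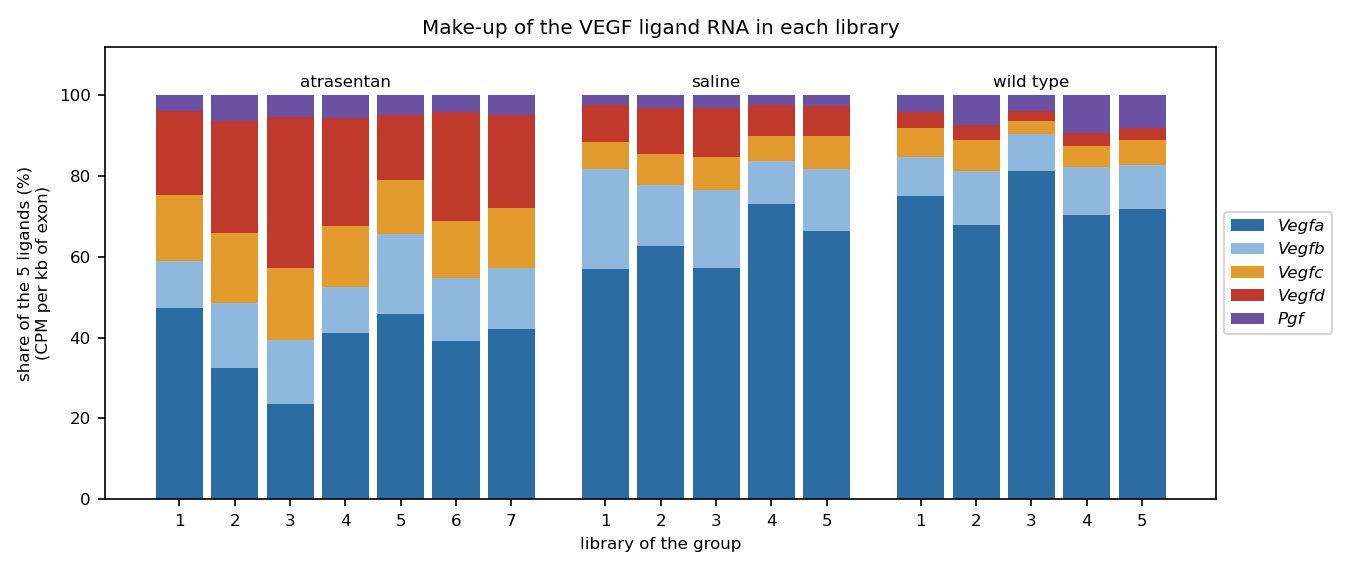
Share of each ligand gene in the summed level of the 5 ligand genes (CPM per kb of exon, in percent), 1 bar per library. Vegfa held 57.0% or more in all 10 saline and wild type libraries and 47.3% or less in the 7 atrasentan libraries, where the Vegfd and Vegfc shares were larger.

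The start regions of the 4 ligand genes that were called are shown because these genes moved in different directions. Each window runs from 250 bases before to 50 bases after the start given by RefSeq (GRCm38.p6), and capitals mark the motifs searched on both strands: the hypoxia response core (ACGTG or GCGTG), the GC box (GGGCGG), the ETS core (CCGGAA) and the GATA core (AGATAA). A match on the other strand is shown by its reverse complement, and no match shares bases with another in these 4 windows.
Vegfa, chr17:46032328-46032627, minus strand: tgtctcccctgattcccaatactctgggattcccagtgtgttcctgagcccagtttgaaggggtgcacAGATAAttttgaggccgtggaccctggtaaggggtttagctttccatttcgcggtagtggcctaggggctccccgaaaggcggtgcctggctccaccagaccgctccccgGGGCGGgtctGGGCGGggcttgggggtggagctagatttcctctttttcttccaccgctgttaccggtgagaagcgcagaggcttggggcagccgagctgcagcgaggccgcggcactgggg
Vegfd, chrX:164373272-164373571, plus strand: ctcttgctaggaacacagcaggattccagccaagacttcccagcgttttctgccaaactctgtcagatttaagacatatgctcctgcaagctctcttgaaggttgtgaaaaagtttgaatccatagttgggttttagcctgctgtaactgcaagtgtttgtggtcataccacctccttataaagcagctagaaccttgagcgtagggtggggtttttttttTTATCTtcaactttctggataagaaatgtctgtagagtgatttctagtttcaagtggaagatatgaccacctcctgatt
Vegfc, chr8:54077282-54077581, plus strand: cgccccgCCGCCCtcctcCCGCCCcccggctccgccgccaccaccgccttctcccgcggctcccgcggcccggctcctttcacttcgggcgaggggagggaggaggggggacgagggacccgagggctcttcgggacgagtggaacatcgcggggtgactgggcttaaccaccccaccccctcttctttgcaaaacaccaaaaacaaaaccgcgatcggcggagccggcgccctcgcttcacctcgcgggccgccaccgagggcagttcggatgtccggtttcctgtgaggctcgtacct
Pgf, chr12:85177264-85177563, minus strand: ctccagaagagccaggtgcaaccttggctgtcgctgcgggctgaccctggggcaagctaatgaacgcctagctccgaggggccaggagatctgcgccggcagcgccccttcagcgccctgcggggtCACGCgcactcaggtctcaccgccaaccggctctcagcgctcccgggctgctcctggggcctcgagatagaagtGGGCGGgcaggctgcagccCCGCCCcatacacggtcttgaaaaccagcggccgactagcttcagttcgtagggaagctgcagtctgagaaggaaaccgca
The Vegfa window is 62.0% G and C and holds 2 GC boxes, 72 and 62 bases before the start, and 1 GATA core. The Vegfd window is 42.0% G and C and holds 1 GATA core, 29 bases before the start, and no GC box. The Vegfc window (70.3%) holds 2 GC boxes, and the Pgf window (66.0%) 2 GC boxes and 1 hypoxia response core, 124 bases before the start. Of 32851 windows of this length in the RefSeq table, 35.7% hold a GC box, 43.8% a hypoxia response core, 14.9% an ETS core and 11.2% a GATA core. A match is a run of letters and not a bound site, and RefSeq lists a further start for Vegfa and for Pgf whose windows are not shown. Both further windows lie inside the gene as annotated, that of Vegfa at chr17:46025114-46025413. The further Vegfa window holds 2 hypoxia response cores and 1 GC box, and the further Pgf window holds none of these motifs. Bases further from the starts were not searched.

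None of the 3 receptor kinase genes was called by edgeR between saline and wild type or between atrasentan and saline, and Flt4 was called between atrasentan and wild type. At an unadjusted p under 0.05 stood Flt4 with saline against wild type and all 3 with atrasentan against saline. DESeq2 made the same calls for them, while with limma-voom Flt4 also passed against saline (adjusted p = 0.0485) and Flt1 (0.0458) and Kdr (0.0464) against wild type, all with atrasentan. Kdr, the main signalling receptor, lies at chr5:75932827-75978458 on the minus strand. Kdr had 2099.8, 2869 and 3223 CPM (lowest, median and highest) with atrasentan, against 1779, 2090.1, 2134, 2209.9 and 2237 CPM with saline. Wild type libraries held 1385, 1814, 2124, 2177 and 2893 CPM. The groups overlapped, and the wild type range held all saline libraries. The difference of atrasentan from saline was 0.37 ± 0.15 (SE, edgeR adjusted p = 0.0681), that between atrasentan and wild type 0.38 ± 0.15 (adjusted p = 0.0699) and that of saline from wild type 0.008 ± 0.16 (adjusted p = 0.986), with a sign that turned to -0.071 with upper-quartile scaling. Kdr passed against saline without atrasentan library 2 (0.43, adjusted p = 0.0412), wild type library 2 (0.38, adjusted p = 0.0370) or wild type library 4 (0.38, adjusted p = 0.0409), and against wild type without atrasentan library 2 (0.43, adjusted p = 0.0418) or wild type library 4 (0.53, adjusted p = 0.0138).

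Flt1 encodes VEGFR1, whose shorter secreted form traps VEGF-A and Pgf and is not separated from the membrane form by counts per gene. Flt1 had 311, 359 and 501 CPM (lowest, median and highest) with atrasentan, against 284, 288, 296, 326 and 411 CPM with saline. For wild type the values were 234, 270.0, 296, 343 and 383 CPM. The groups overlapped. The difference of atrasentan from saline was 0.33 ± 0.15 (edgeR adjusted p = 0.0957), which passed without saline library 2 (0.44, adjusted p = 0.0353). The difference of atrasentan from wild type was 0.40 ± 0.15 (adjusted p = 0.0515) and passed when atrasentan library 3, 4 or 6, saline library 2 or wild type library 4 was left out (adjusted p between 0.0271 and 0.0498). With saline against wild type it was 0.073 ± 0.16 (adjusted p = 0.850), and -0.007 with upper-quartile scaling. The closest genes of Flt1 in pattern were Pitpnm2 (r = 0.88), Plec (r = 0.87) and Erg (r = 0.87), a transcription factor of endothelium. Those of Kdr were Aebp2, Tubgcp3 and Zfp516 (r between 0.90 and 0.91). For Flt4 they were Dnmt1, Prickle2 and Kif26a (r between 0.91 and 0.94).

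Flt4, the receptor of VEGF-C and VEGF-D, was called with atrasentan against wild type. Flt4 had 152, 188 and 213 CPM (lowest, median and highest) with atrasentan, against 108, 118, 128, 144 and 186 CPM with saline. Wild type libraries held 66.0, 91.1, 95.2, 113 and 131 CPM. All atrasentan libraries lay above all wild type libraries, while the saline libraries overlapped with both. Flt4 rose by 0.86 ± 0.16 with atrasentan against wild type (edgeR adjusted p = 0.000822). It stood at 0.40 ± 0.16 with atrasentan against saline (adjusted p = 0.0616) and at 0.46 ± 0.17 with saline against wild type (adjusted p = 0.119). The difference from saline passed without saline library 2 (0.54, adjusted p = 0.0150), wild type library 2 (0.40, adjusted p = 0.0358) or wild type library 4 (0.40, adjusted p = 0.0495). VEGFR3 is a receptor of lymphatic endothelium. Of 8 markers of that cell type, Lyve1, which some macrophages also carry, averaged 6.58 ± 3.395 CPM in atrasentan, 1.93 ± 1.17 in saline and 2.21 ± 1.05 in wild type libraries. Lyve1 rose by 1.77 ± 0.48 with atrasentan against saline (edgeR adjusted p = 0.0102, and 1.36 with adjusted p = 0.0776 without saline libraries 1 and 3) and by 1.58 ± 0.48 against wild type (adjusted p = 0.0198). Prox1 averaged 1.39 ± 1.19 CPM in atrasentan, 2.40 ± 1.10 in saline and 1.17 ± 0.49 in wild type libraries and was not called by edgeR. The group means of Mmrn1 and Reln were at most 0.36 CPM, and Ccl21a had at most 0.032 CPM and Tbx1 at most 0.17 CPM in any library. Of the 6 of these markers tested 1 rose (Lyve1) and 2 fell (Foxc2 and Pdpn) with atrasentan against saline. Without saline libraries 1 and 3 these counts were 0 and 1 (Foxc2). Against wild type the same 1 rose and the same 2 fell with atrasentan. None of the 6 markers was called by edgeR with saline against wild type, while 2 had an unadjusted p under 0.05 and DESeq2 called 1 and limma-voom 0. Their part in the level of Flt4 was not tested. The summed level of all 8 lay between 32.4 and 86.7 CPM with atrasentan, 74.6 and 150 CPM with saline, and 143 and 279 CPM in wild type. Most of this sum came from Foxc2 and Pdpn, which the podocyte and parietal lists also hold and which averaged 35.8 and 14.0 CPM with atrasentan, 71.2 and 28.1 CPM with saline, and 125 and 66.3 CPM in wild type.

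Markers of glomerular endothelium, the cells that carry these receptors, were counted beside them. Of 22 such markers, chosen without the 3 receptor genes, 15 rose and none fell with atrasentan against saline (15.3% of all genes rose and 18.5% fell), 15 rose and 1 fell with atrasentan against wild type, and 1 fell with saline against wild type. Without saline libraries 1 and 3, 3 rose with atrasentan against saline (median 0.28 in place of 0.45). Their summed level lay between 29863 and 43616 CPM with atrasentan, 18569 and 37363 CPM with saline, and 20885 and 25392 CPM in wild type. The mean log2 level of Flt1, Kdr and Flt4 minus that of the endothelial markers was -0.13 ± 0.15 in atrasentan, -0.08 ± 0.11 in saline and -0.31 ± 0.36 in wild type libraries (SD). It differed by -0.053 between atrasentan and saline (exact permutation p = 0.508), by 0.18 between atrasentan and wild type (exact p = 0.277) and by 0.23 between saline and wild type (exact p = 0.190), with adjusted p of at least 0.404. The log2 ratio of Flt1 to Kdr was -2.75 ± 0.43, -2.71 ± 0.20 and -2.75 ± 0.19 in atrasentan, saline and wild type libraries. Its differences lay between -0.042 and 0.036 (exact p of at least 0.762, adjusted p = 0.990 for all 3).

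**Figure D4:**
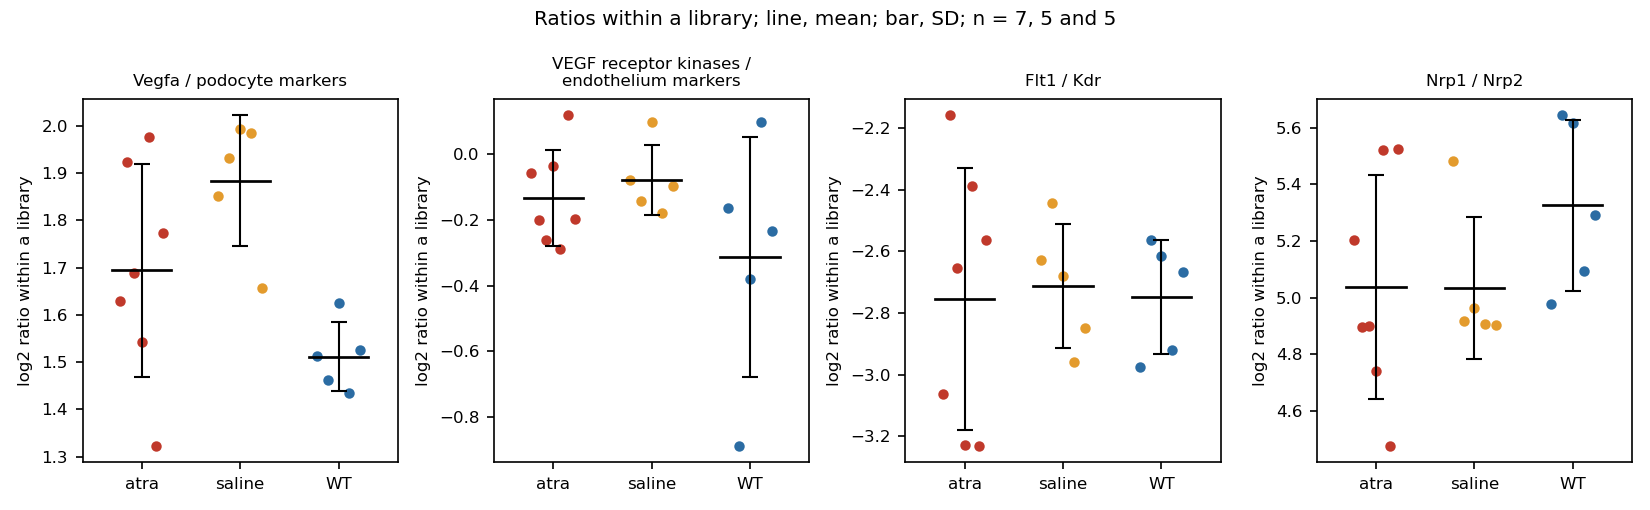
Log2 ratios within a library for Vegfa to 26 podocyte markers, the 3 receptor kinases to 22 endothelial markers, Flt1 to Kdr and Nrp1 to Nrp2, with atrasentan, saline and wild type from left to right (points, libraries; line, mean; bar, SD). The 5 saline libraries lie above the 5 wild type libraries in the ratio of Vegfa to podocyte markers, and the groups overlap in the other ratios.

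Of the co-receptors, Nrp1 was called and Nrp2 was not. Nrp1, which presents VEGF-A to VEGFR2 and also binds class 3 semaphorins, lies at chr8:128358604-128503363 on the plus strand. Nrp1 had 2639, 3086 and 3539 CPM (lowest, median and highest) with atrasentan, against 2013, 2256, 2370, 2383 and 2466 CPM with saline. Values of 2288, 2689, 2817, 2849 and 3161 CPM were found in wild type. All atrasentan libraries lay above all saline libraries, and both ranges overlapped with that of wild type. Nrp1 rose by 0.40 ± 0.10 with atrasentan against saline (edgeR adjusted p = 0.00697), stood at -0.27 ± 0.11 with saline against wild type (adjusted p = 0.162) and at 0.13 ± 0.10 with atrasentan against wild type (adjusted p = 0.344). The rise against saline was 0.33 without saline libraries 1 and 3 and did not pass there (adjusted p = 0.0897). The gene closest to Nrp1 in pattern was Efnb2 (r = 0.89), an ephrin of arterial endothelium, followed by Ccr7 (r = 0.87) and Mefv (r = 0.83).

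Nrp2, the co-receptor of VEGFR3, had 67.2, 95.2 and 122 CPM (lowest, median and highest) with atrasentan, against 45.0, 72.3, 78.9, 79.2 and 82.2 CPM with saline. Wild type libraries held 45.7, 54.8, 72.7, 89.3 and 92.4 CPM. All 3 groups overlapped. The difference of atrasentan from saline was 0.39 ± 0.20 (edgeR adjusted p = 0.136), that between atrasentan and wild type 0.40 ± 0.20 (adjusted p = 0.138) and that of saline from wild type 0.010 ± 0.21 (adjusted p = 0.986), which was -0.065 with upper-quartile scaling. The log2 ratio of Nrp1 to Nrp2 was 5.04 ± 0.40 in atrasentan, 5.03 ± 0.25 in saline and 5.33 ± 0.30 in wild type libraries, and no difference passed (exact permutation p of at least 0.119, adjusted p of at least 0.390). The closest genes of Nrp2 in pattern were Adam12 (r = 0.91) and Igfbp5 (r = 0.91), a marker of peritubular and vein endothelium here.

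Genes around the VEGF family were counted in 8 lists, all without the 10 genes, beside the share of all genes that rose and fell (3.21% and 1.91% with saline against wild type, 15.3% and 18.5% with atrasentan against saline, 14.7% and 14.5% with atrasentan against wild type). With saline libraries 1 and 3 left out, 54 genes in place of 910 were called with saline against wild type and 2577 in place of 6001 with atrasentan against saline, and list counts under that setting are given where they moved by over 1.5 times. Of 15 genes of oxygen sensing, which set Vegfa transcription through the HIF factors, 1 rose with saline against wild type (0 without saline libraries 1 and 3, where 3 had an unadjusted p under 0.05), 3 rose and 2 fell with atrasentan against saline (2 and 1 without these libraries), and 6 rose and 2 fell with atrasentan against wild type. Epas1, which encodes HIF-2 alpha, rose by 0.38 ± 0.14 with atrasentan against saline (1164 ± 165 against 897 ± 207 CPM, mean ± SD, edgeR adjusted p = 0.0468). Egln3, a prolyl hydroxylase that is itself a HIF target, fell by 0.91 ± 0.15 there (4.22 ± 0.51 against 7.92 ± 1.44 CPM, adjusted p = 0.000356). Hif1a rose by 0.58 ± 0.11 with atrasentan against wild type (161 ± 27.4 against 107 ± 11.1 CPM, adjusted p = 0.000778). Hif3a rose by 3.12 ± 0.82 with saline (4.49 ± 3.01 against 0.52 ± 0.68 CPM, adjusted p = 0.0374) and by 3.55 ± 0.80 with atrasentan (6.07 ± 6.40 CPM, adjusted p = 0.00317) against wild type.

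Of 27 known targets of hypoxia, 5 rose with saline against wild type, 1 rose and 7 fell with atrasentan against saline, and 5 rose with atrasentan against wild type. Without saline libraries 1 and 3, edgeR called 0 with saline against wild type (9 had an unadjusted p under 0.05), and 2 rose and 2 fell with atrasentan against saline, while DESeq2 with all libraries called 12 with saline against wild type. The list medians were 0.43, -0.27 and 0.18 on the log2 scale. Ndrg1, a stress-response gene, rose by 0.89 ± 0.22 with saline against wild type (681 ± 203 against 368 ± 105 CPM, edgeR adjusted p = 0.0324) and fell by 1.33 ± 0.20 with atrasentan against saline (271 ± 53.7 CPM with atrasentan, adjusted p = 0.000292). Bnip3 rose by 0.91 ± 0.25 with saline against wild type (adjusted p = 0.0456). The carbonic anhydrase gene Car12 fell by 2.604 ± 0.44 with atrasentan against saline (27.6 ± 18.3 against 168 ± 104 CPM, adjusted p = 0.000480), and the glucose transporter gene Slc2a3 rose by 0.68 ± 0.17 (adjusted p = 0.00536). Pfkfb3, a regulator of glycolysis, rose by 0.97 ± 0.20 with atrasentan against wild type (adjusted p = 0.00152). In the same comparisons 9 of 22 proximal tubule markers rose and 1 fell with saline against wild type, and 20 fell with atrasentan against saline. Without saline libraries 1 and 3, 0 of these markers rose and 1 fell with saline against wild type (9 had an unadjusted p under 0.05, and the median was 1.04 in place of 1.92) and 16 fell with atrasentan against saline, while DESeq2 with all libraries called 20 higher with saline. The part of tubule RNA in the hypoxia counts was not tested.

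Of 9 genes that cleave or help to activate VEGF-C and VEGF-D, 2 rose with saline against wild type, 2 with atrasentan against saline and 5 with atrasentan against wild type, and none fell by edgeR. With limma-voom 0 were called with saline against wild type, and 2 rose and 2 fell with atrasentan against saline. With saline libraries 1 and 3 left out, edgeR called 0 in either comparison with saline, where 4 and 2 had an unadjusted p under 0.05. Adamts14, a metalloproteinase that can activate VEGF-C, rose by 1.62 ± 0.45 with saline (5.17 ± 3.09 against 1.68 ± 0.28 CPM, edgeR adjusted p = 0.0472) and by 1.97 ± 0.44 with atrasentan (6.59 ± 3.56 CPM, adjusted p = 0.00283) against wild type. Adamts2 rose by 0.84 ± 0.24 with atrasentan against saline (19.6 ± 6.70 against 10.97 ± 2.35 CPM, adjusted p = 0.0124), and the proprotein convertase Pcsk7 by 0.35 ± 0.09 (adjusted p = 0.00530). The protease cathepsin D, Ctsd, rose by 0.46 ± 0.13 with saline against wild type (adjusted p = 0.0429).

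Of 26 genes listed as VEGF binding partners, not all of them known to bind VEGF or its receptors, 4 rose with saline against wild type. In the atrasentan group 9 rose and 5 fell against saline, and 12 rose and 5 fell against wild type. Without saline libraries 1 and 3, edgeR called 0 with saline against wild type (10 had an unadjusted p under 0.05), and 3 rose and 3 fell with atrasentan against saline. Lrg1, a secreted protein that promotes vessel growth, rose by 1.59 ± 0.34 with saline (81.1 ± 54.0 against 27.0 ± 7.43 CPM, edgeR adjusted p = 0.0193) and by 2.07 ± 0.34 with atrasentan (113 ± 38.9 CPM, adjusted p = 0.000257) against wild type. Thbs1, the angiogenesis inhibitor thrombospondin 1, rose by 1.10 ± 0.35 with atrasentan against saline (388 ± 186 against 181 ± 33.0 CPM, adjusted p = 0.0230), and the syndecan Sdc1 by 1.00 ± 0.20 (adjusted p = 0.00136). The small proteoglycan decorin, Dcn, rose by 1.996 ± 0.24 with atrasentan against wild type (38.8 ± 11.9 against 9.71 ± 3.42 CPM, adjusted p = 2.32e-05), and the syndecan Sdc4 fell by 1.60 ± 0.21 (adjusted p = 4.77e-05). The glypican Gpc4 rose by 1.49 ± 0.34 with saline against wild type (adjusted p = 0.0234) and fell by 1.47 ± 0.31 with atrasentan against saline (adjusted p = 0.00190).

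Of 60 signalling genes downstream of VEGFR2, 25 rose and 2 fell with atrasentan against saline (median 0.25), 22 rose and 1 fell with atrasentan against wild type (median 0.26), and 1 fell with saline against wild type (median 0.052). With saline libraries 1 and 3 left out, 9 rose and 1 fell with atrasentan against saline (median 0.22), and edgeR called 0 with saline against wild type (5 had an unadjusted p under 0.05), where limma-voom with all libraries also called 0 and DESeq2 called 1 higher and 1 lower. Rasip1, a protein of endothelial junctions, rose by 0.77 ± 0.14 with atrasentan against wild type (395 ± 59.5 against 231 ± 21.8 CPM, edgeR adjusted p = 0.000525). Pik3cb fell by 0.62 ± 0.13 with atrasentan against saline (adjusted p = 0.00217), the cyclooxygenase gene Ptgs2 by 0.96 ± 0.32 (adjusted p = 0.0270), and the adaptor gene Nck2 by 0.52 ± 0.14 with saline against wild type (adjusted p = 0.0411), a call lost without saline libraries 1 and 3 and with limma-voom. Of 34 genes known to rise after VEGF, 3 rose and 2 fell with saline against wild type, 9 rose and 6 fell with atrasentan against saline, and 11 rose and 5 fell with atrasentan against wild type. Without saline libraries 1 and 3, edgeR called 0 of these with saline against wild type (11 had an unadjusted p under 0.05), and 3 rose and 2 fell with atrasentan against saline. Fabp4, a fatty acid binding protein of capillaries, rose by 1.12 ± 0.25 with saline (211 ± 97.6 against 97.0 ± 27.8 CPM, adjusted p = 0.0201) and by 1.81 ± 0.24 with atrasentan (341 ± 60.1 CPM, adjusted p = 5.53e-05) against wild type. The immediate early gene Egr1 fell by 2.63 ± 0.38 with atrasentan against saline (209 ± 78.7 against 1295 ± 383 CPM, adjusted p = 0.000216), and the netrin receptor Unc5b rose by 0.84 ± 0.16 (110 ± 16.3 against 61.6 ± 10.6 CPM, adjusted p = 0.00117).

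Of 22 genes of class 3 semaphorins, plexins and their partners, which share the neuropilins with VEGF, none was called with saline against wild type by edgeR, while 4 had an unadjusted p under 0.05 and DESeq2 called 2 and limma-voom 0. With atrasentan 5 rose and 4 fell against saline (1 and 2 without saline libraries 1 and 3, and 5 and 7 by limma-voom), and 8 rose and 5 fell against wild type. Plxna1 rose by 0.67 ± 0.16 against saline (92.5 ± 20.6 against 58.1 ± 6.10 CPM, edgeR adjusted p = 0.00373). Sema3b fell by 1.35 ± 0.28 against saline (21.0 ± 8.50 against 53.4 ± 18.1 CPM, adjusted p = 0.00169), and Sema3g, a semaphorin of podocytes and endothelium, by 0.72 ± 0.26 (adjusted p = 0.0413). Sema3a, a ligand of neuropilin 1, rose by 2.19 ± 0.47 against wild type (2.90 ± 1.95 against 0.63 ± 0.22 CPM, adjusted p = 0.00229). Of 11 genes of the related PDGF and colony-stimulating factor systems, 8 rose with atrasentan against saline (3 without saline libraries 1 and 3) and 7 against wild type, none fell, and none was called with saline against wild type by edgeR, while 2 had an unadjusted p under 0.05 and DESeq2 called 1 and limma-voom 0. Csf1r, a receptor of macrophages, rose by 0.97 ± 0.30 with atrasentan against saline (64.4 ± 23.9 against 32.9 ± 10.4 CPM, adjusted p = 0.0202), where 16 of 20 macrophage markers rose (9 without saline libraries 1 and 3). Pdgfra, a receptor of fibroblasts, rose by 1.10 ± 0.32 with atrasentan against wild type (114 ± 58.5 against 53.1 ± 16.1 CPM, adjusted p = 0.0161).

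**Figure D5:**
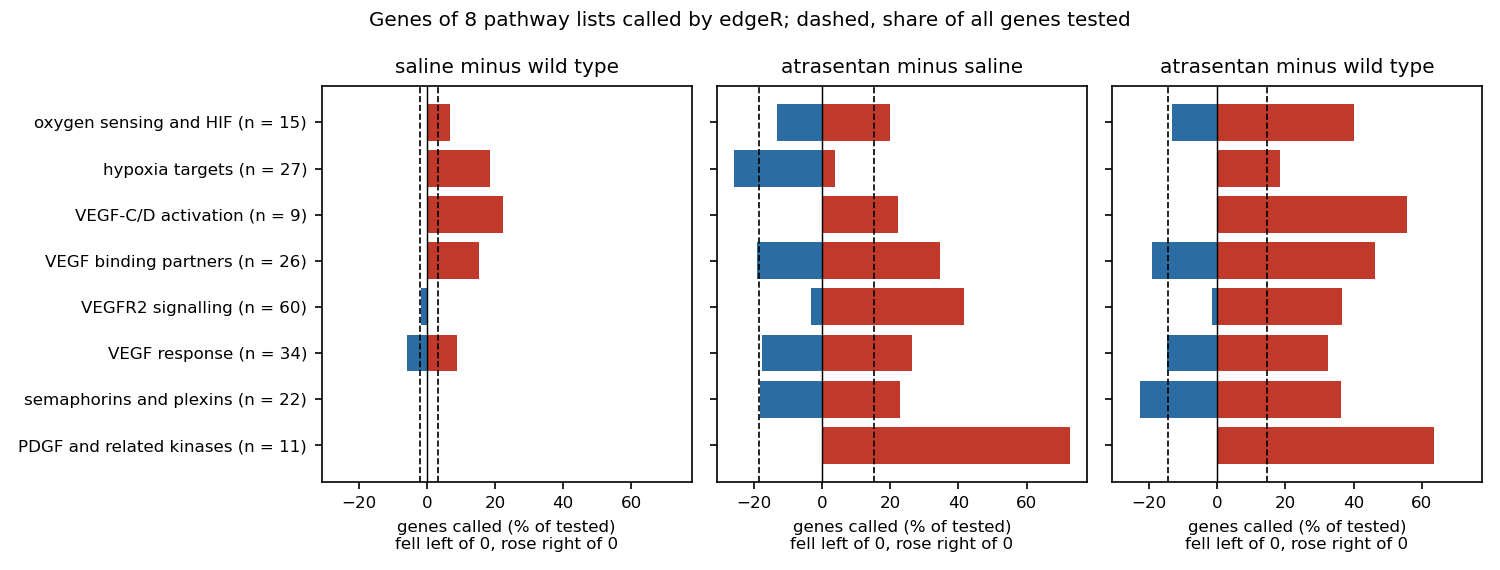
Share of the tested genes in 8 lists around the VEGF family that were called lower (left of 0) or higher (right of 0) by edgeR, in percent, in 3 comparisons. The dashed lines give the same shares over all 17766 genes tested. With atrasentan, 25 of 60 VEGFR2 signalling genes and 8 of 11 genes of the PDGF and related systems rose against saline.

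Beside all differences of the atrasentan group stands the lower share of reads outside genes in each of its libraries. Each of its libraries also held a read on fewer genes than any saline or wild type library. Genes with a read numbered 21396 to 23081 with atrasentan, 24335 to 25313 with saline and 23901 to 24877 in wild type. This number was not used as a covariate. With the outside-gene share as a covariate 2 of the 10 genes were called with atrasentan against saline and 2 against wild type. Of all 17766 genes tested that fit called 1931 and 582 in these comparisons. The log2 differences of Vegfa were then -1.23 (edgeR adjusted p = 0.0932) and -1.67 (adjusted p = 0.0816). Vegfc stood at 0.76 (adjusted p = 0.193) against saline and 0.90 (adjusted p = 0.213) against wild type there. Against saline, Vegfd stood at 1.26 (adjusted p = 0.0981) and Nrp1 at 0.56 (adjusted p = 0.106). Flt4 stood at 1.32 (adjusted p = 0.0730) against wild type. Flt1 was called in this fit, at 0.96 (adjusted p = 0.0250) against saline and 1.14 (adjusted p = 0.0415) against wild type. Of the earlier calls, Pgf at 1.125 (adjusted p = 0.0384) against saline and Vegfd at 2.62 (adjusted p = 0.0159) against wild type also passed.

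Marker levels moved with the groups as well. With the podocyte minus proximal tubule marker mean as a covariate edgeR called 0 of the 10 genes with saline against wild type (3 had an unadjusted p under 0.05), where Vegfd stood at 1.34 (adjusted p = 0.216) and Pgf at -1.35 (adjusted p = 0.0859). In that fit 5 of all 17766 genes tested were called with saline against wild type and 947 with atrasentan against saline. With atrasentan against saline Vegfa stood at -1.39 (adjusted p = 0.00566) and Vegfd at 1.32 (adjusted p = 0.0290) in that fit, and Vegfc at 0.76 (adjusted p = 0.0854), Pgf at 0.68 (adjusted p = 0.114) and Nrp1 at 0.23 (adjusted p = 0.326) did not pass. With the glomerular endothelium marker mean as a covariate Vegfa at -0.87 (adjusted p = 0.0962), Pgf at 0.76 (adjusted p = 0.0888) and Nrp1 at 0.30 (adjusted p = 0.239) did not pass against saline, and Pgf at -0.62 (adjusted p = 0.0847) did not pass against wild type. Vegfc at 1.19 (edgeR adjusted p = 0.0172) and Vegfd at 1.67 (adjusted p = 0.00948) passed against saline in that fit. Vegfa, Vegfc, Vegfd and Flt4 passed against wild type. The covariates differ between the groups themselves, so in these fits they and the treatment or genotype can be told apart only in part.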

How the data were processed

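Poly(A) RNA of glomeruli-enriched cortex was made into unstranded TruSeq libraries and read as single ends of 50 bases, per the labels' protocols. Per gene, raw counts (53379 genes) and log2-like normalized values (17338 genes, transform not stated) were deposited by the authors. STAR, HTSeq, DESeq2, edgeR, limma and the build GRCm38 are listed, with no versions or roles, per the submitters' processing notes, and neither annotation release nor strand setting is stated. Closing lines of the count table name no gene and were left out of library sizes: reads outside genes were 3.17% to 8.58% of all reads counted, reads with several positions 23.4% to 31.8%, and ambiguous reads 2.93% to 3.37%.

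Counts were fitted with edgeR 4.0.16 in R 4.3.3 (glmQLFit and glmQLFTest, TMM scaling, filterByExpr, 1 fit of all 17 libraries), and p-values were adjusted by Benjamini-Hochberg over 17766 genes, with a threshold of 0.05 and two-sided tests. Fold changes are log2 and have the group named first on top. CPM are TMM-scaled, and CPM per kb divides by the length of the gene's exons, merged over all annotated transcripts. Which transcripts were expressed is not known, so the order of genes and the ligand shares depend on this length. Ratios within a library used log2 CPM with a prior count of 2 and two-sided exact permutation tests (scipy 1.17.1), adjusted over 12 tests. Alternatives were DESeq2 1.42.0, limma 3.58.1, other scalings, no filter, covariates and libraries left out. Scripts were tested on simulated data. Among 41 pairs of libraries within groups none agreed within sampling noise (chi-square per degree of freedom 26.5 or more). The labels give 1 mouse per library and 1 batch, and replicate numbers only name libraries. The library names run in consecutive blocks by group, so that the group and an order of handling cannot be told apart. The 10 genes and all lists were chosen with earlier results of these data known. From each pathway list the text takes its genes from the up to 2 called genes with the largest rise and the up to 2 with the largest fall in each comparison, and for each of the 10 genes from the 3 genes of most similar pattern with a mean of at least 1 CPM; some of the genes so chosen are not reported here. Counts per gene do not separate isoforms. Nrp1 and Nrp2 overlap other annotated genes, of which the most read had 592 reads over the 17 libraries. Protein sequences were not used here.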

Additional observations from a re-analysis of the deposited data

Results flagged for a closer look

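In 42 tests of the highest and lowest library of a group, over the 10 genes and 4 ratios in 3 groups, 3 values, from 2 libraries, stood apart from the rest of their group, where chance gives about 1 in 20, and the third of them is a ratio that contains the second. Saline library 4 had 847.4 CPM of Vegfa, and the other saline libraries had 461 to 562 CPM. Saline library 1 had 44.97 CPM of Nrp2, and the other saline libraries had 72.3 to 82.2 CPM. The same library had the highest log2 ratio of Nrp1 to Nrp2 of its group, at 5.482, and the others lay between 4.90 and 4.96. Saline library 1 also held the highest summed level of proximal tubule markers of all 17 libraries, at 16486 CPM. Whether this bears on its Nrp2 level was not tested. The Vegfa calls were kept without saline library 4.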

How the results depend on the processing

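No paired analysis was made, as each library is 1 mouse of 1 group and the labels give no pairing of mice between groups. Of the 12 called differences of single genes, all kept their direction in every alternative run, all 204 values from leaving 1 library out passed, and of the values from other settings 113 passed and 19 did not. With saline against wild type the number of the 10 genes called, 2 in all libraries, was 0 with the podocyte minus proximal tubule marker mean as a covariate, 1 without saline libraries 1 and 3, and lay between 2 and 3 when 1 library was left out. With atrasentan against saline it was 5, but 2 with the podocyte minus proximal tubule covariate, 2 with the endothelium covariate and 2 with the outside-gene read share as a covariate (chosen after seeing the data), and between 5 and 8 when 1 library was left out, with 8 without saline library 2. With atrasentan against wild type it was 5, but 2 with the share of reads outside genes, and between 5 and 7 when 1 library was left out. The cause of these shifts was not tested. Directions that turned belonged to differences that had not passed. With saline against wild type they were Nrp2 at -0.065, Flt1 at -0.007 and Kdr at -0.071 (upper-quartile scaling), Nrp2 at -0.01 and Kdr at -0.01 (no filter), Nrp2 at -0.003 and Kdr at -0.006 (only both groups fitted), Vegfa at 0.114 (podocyte minus proximal tubule covariate), and, leaving 1 library out, Nrp2 between -0.113 and 0.122, Flt1 between -0.033 and 0.167 and Kdr between -0.108 and 0.156. With atrasentan against saline they were Vegfb at 0.068 (podocyte minus proximal tubule) and 0.008 (endothelium) and Flt1 at -0.041 (endothelium), and with atrasentan against wild type Vegfb at -0.382 (reads outside genes). Among ratios they were Flt1 to Kdr, at -0.003 with saline against wild type without saline libraries 1 and 3 and between -0.031 and 0.098 when 1 library was left out, between -0.142 and 0.037 with atrasentan against saline and between -0.106 and 0.073 with atrasentan against wild type; Nrp1 to Nrp2 with atrasentan against saline, between -0.077 and 0.116; and receptor kinases to endothelial markers with atrasentan against saline, at 0.007 without saline libraries 1 and 3. Vegfb passed with DESeq2 with saline against wild type (0.46, adjusted p = 0.0372). With limma-voom Flt4 passed with atrasentan against saline (0.41, adjusted p = 0.0485), and Flt1 (0.40, adjusted p = 0.0458) and Kdr (0.41, adjusted p = 0.0464) passed with atrasentan against wild type. Over all genes, 910 were called with saline against wild type, between 216 and 1523 when 1 library was left out, 550 by limma-voom, 1979 by DESeq2, 1430 with only both groups fitted, 5 with the podocyte minus proximal tubule covariate and 409 with reads outside genes as a covariate. With atrasentan against saline 6001 were called, and 947, 835 and 1931 with the podocyte minus proximal tubule, endothelium and outside-gene covariates. With atrasentan against wild type 5190 were called, and 2755 with the endothelium and 582 with the outside-gene covariate.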
